A study of Homo sapiens with 6 samples.

Results

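The genes described here are the class I histone deacetylases HDAC1, HDAC2, HDAC3 and HDAC8 and the class IIa histone deacetylases HDAC4, HDAC5, HDAC7 and HDAC9. They were taken by gene symbol from a table of read counts for 23250 genes, and all 8 were present and passed the filter on low counts. The RNA came from OCI-LY1, a human cell line established from diffuse large B cell lymphoma, which arises from mature B cells. In both groups the cells were transfected with siRNA against BCL6, and BCL6 was then expressed from an introduced copy. That copy was the RD2 mutant in the RD2 mutant rescue (3 libraries) and wild-type BCL6 in the WT rescue (3 libraries). The comparison asks which transcripts differ when RD2, the second repression domain of the BCL6 protein, is mutated. The mutation coincides with the group, so RD2 itself, other differences between the cultures and the amount of BCL6 cannot be told apart. No library lacked a rescue.

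Histone deacetylases remove acetyl groups from lysines of histones and other proteins, and transcriptional repressors such as BCL6 recruit them to chromatin. The class I enzymes are mostly nuclear. HDAC1 and HDAC2 are close paralogues that share the SIN3, NuRD and CoREST complexes, HDAC3 works in a corepressor complex with NCOR1, and HDAC8 is not known to need such a complex. The class IIa proteins have little deacetylase activity of their own. They bind the MEF2 transcription factors and the HDAC3 complex, and leave the nucleus when kinases phosphorylate them and 14-3-3 proteins bind. RD2 has been reported to bind HDAC2, and BCL6 has been reported to bind class IIa members.

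The libraries held 26298456 to 26966183 counts in the RD2 mutant rescue and 26477404 to 27574867 in the WT rescue, and a floor of 3 counts corresponded to 0.109 to 0.114 CPM (a gene's counts scaled to its library's size by TMM), which covers counting error only. Of the 6 B cell markers checked, 6 had at least 10 counts in every library, as did 4 of 6 germinal centre markers. T cell markers summed to 3 to 6 counts per RD2 mutant library and 0 to 3 per WT library, with CD3E and CD2 at 0 throughout. Myeloid markers summed to 13 to 22 counts per RD2 mutant library and 3 to 8 per WT library. The part of these differences in the results was not tested. Replicate 2 of the RD2 mutant rescue stood apart from its group. Its counts differed from those of the other two mutant libraries by 4.36 and 5.47 chi-square units per degree of freedom, against 1.75 between those libraries and 1.60 to 3.01 within the WT rescue. BCL6 itself was 1.31-fold lower in the RD2 mutant rescue, at 519.9 ± 8.71 CPM against 679 ± 24.3 CPM in the WT rescue (SD, n = 3 each; edgeR quasi-likelihood test, adjusted p = 7.90e-10). Counts per gene cannot distinguish endogenous from introduced BCL6, and the part of the BCL6 level in the results was not tested.

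Per kilobase of the longest annotated transcript, HDAC7 and HDAC9 were about equally abundant in the RD2 mutant rescue, whereas HDAC7 made up most of class IIa in the WT rescue. Per kilobase of coding sequence HDAC9 stood above HDAC7 in the mutant rescue, at 63.8 ± 3.03 CPM per kb against 43.8 ± 2.37 (SD, n = 3). HDAC9 was 2.55-fold higher and HDAC7 1.58-fold lower than in the WT rescue. Of the class I genes, HDAC1 fell 1.29-fold and HDAC3 1.18-fold, while HDAC2 and HDAC8 were slightly higher. Of the 8 genes, 4 were higher, 3 were lower and 1 did not pass the test (threshold of 0.05 on p adjusted over 12406 tested genes, edgeR quasi-likelihood). Of all tested genes, 70.1% were called, 35.4% as higher and 34.8% as lower, so the count of 7 called among 8 members does not set them apart. For 6 of the 8 members the groups were apart in all libraries, without overlap, against 72.4% of all tested genes. When a change beyond 1.2-fold was required (edgeR glmTreat), 3 of the 8 passed, against 37.0% of all tested genes. The median absolute log2 fold change was 0.29 for the 8 members and also 0.29 for all tested genes. In bulk RNA, fewer cells that express a gene and less RNA per cell cannot be told apart. Whether the 3 libraries of a group are separate cultures is not in the labels, so every p-value here is set against a spread between libraries that may be technical.

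**Figure D1:**
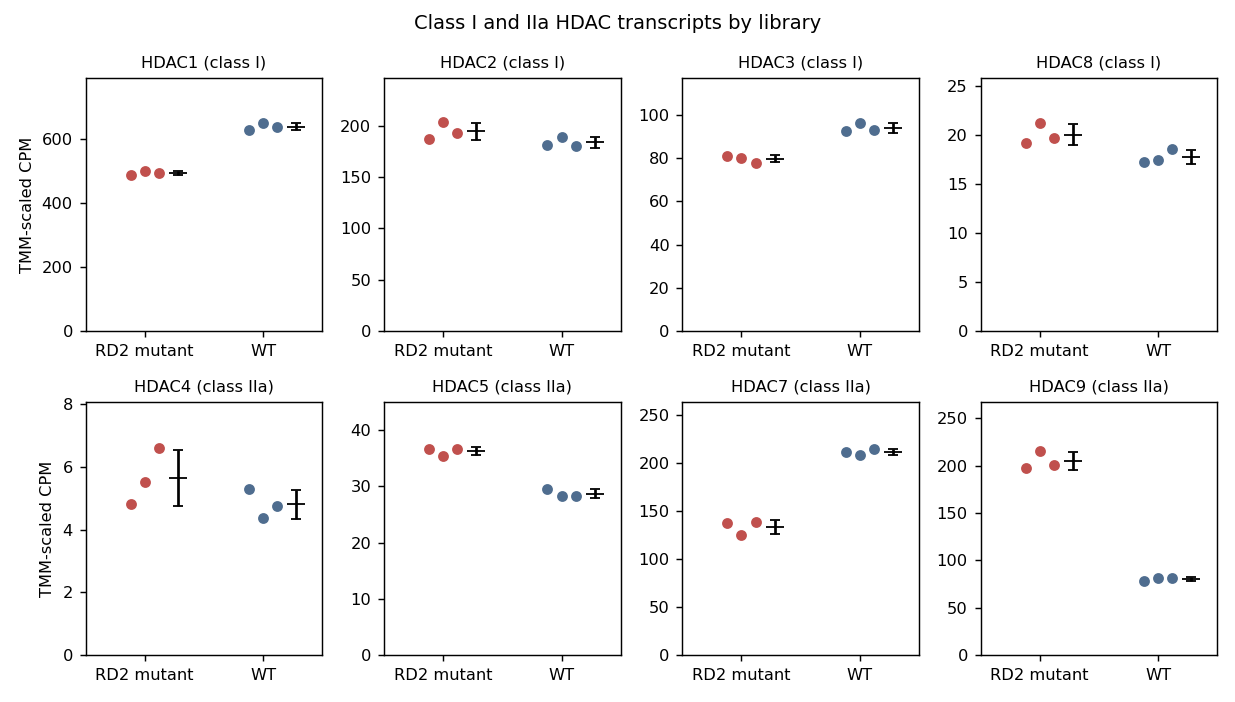
TMM-scaled CPM of the 8 genes in each library (points; RD2 mutant rescue in red at left, WT rescue in blue at right), with mean and SD over 3 libraries as black bars; every axis starts at 0. HDAC9 is higher and HDAC7 lower in all 3 RD2 mutant libraries, while the HDAC2 and HDAC4 points of the groups overlap.

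**Figure D2:**
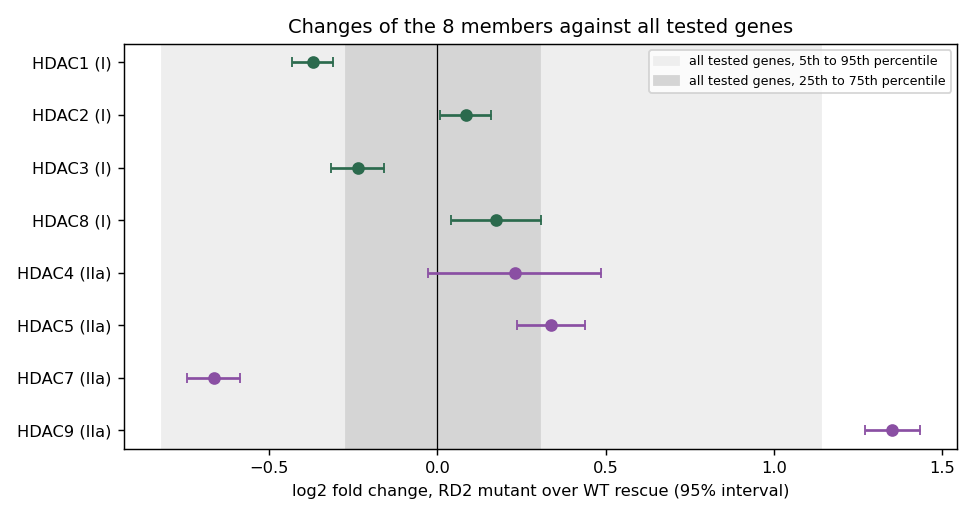
Log2 fold change of each gene, RD2 mutant over WT rescue, with its 95% interval (class I green, class IIa purple), over bands for the middle of all 12406 tested genes. HDAC9, at 1.35, is the member outside the band from the 5th to the 95th percentile.

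HDAC9 encodes a class IIa protein that is made in several forms, including one that lacks the deacetylase domain. It stood at 197, 216 and 201 CPM in the RD2 mutant libraries (5290, 5792 and 5351 counts), against 78.1, 81.8 and 80.9 CPM in the WT libraries (2140, 2136 and 2205 counts). All 3 mutant libraries lay far above all 3 WT libraries. The log2 fold change was 1.35 (SE 0.039; edgeR, adjusted p = 2.25e-17), larger in absolute size than that of 94.5% of tested genes. Without replicate 2 of the RD2 mutant rescue, its highest library, it was 1.31. HDAC9 has 5 promoter windows in RefSeq (GRCh38.p14, chromosome 7, plus strand), each running from 250 bases before an annotated start to 50 bases after it, and the gene counts do not tell from which start or in which form the transcripts came.

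The most upstream HDAC9 window and 1 of the 4 downstream windows are shown because the start used by the transcript that rose is not known, together with the only HDAC7 window, since that paralogue fell. Capitals mark a match to the MEF2 motif as searched, CTA and TAG with any 4 bases between them. This motif reads the same on both strands and is looser than the known consensus in those 4 bases. Sites with other letters in place of CTA or TAG were not matched.
HDAC9 upstream start, chr7:18086575-18086874, plus strand: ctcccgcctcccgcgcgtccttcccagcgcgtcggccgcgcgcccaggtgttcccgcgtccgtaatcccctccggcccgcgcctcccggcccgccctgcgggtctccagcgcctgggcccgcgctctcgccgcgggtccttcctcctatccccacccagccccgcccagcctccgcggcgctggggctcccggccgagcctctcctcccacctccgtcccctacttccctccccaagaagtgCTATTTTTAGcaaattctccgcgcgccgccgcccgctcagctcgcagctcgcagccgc
HDAC9 downstream start, chr7:18495499-18495798, plus strand: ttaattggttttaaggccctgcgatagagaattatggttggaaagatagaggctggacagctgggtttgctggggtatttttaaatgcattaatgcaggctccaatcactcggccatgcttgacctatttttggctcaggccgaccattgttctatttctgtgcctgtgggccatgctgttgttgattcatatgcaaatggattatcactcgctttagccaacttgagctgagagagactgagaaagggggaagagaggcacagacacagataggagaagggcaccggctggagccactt
HDAC7 start, chr12:47819854-47820153, minus strand: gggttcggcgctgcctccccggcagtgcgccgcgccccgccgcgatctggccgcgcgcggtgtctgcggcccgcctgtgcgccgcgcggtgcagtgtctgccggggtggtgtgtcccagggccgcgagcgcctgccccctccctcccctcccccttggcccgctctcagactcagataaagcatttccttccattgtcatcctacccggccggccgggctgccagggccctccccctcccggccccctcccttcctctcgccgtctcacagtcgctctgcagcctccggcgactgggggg
The match CTATTTTTAG in the upstream HDAC9 window began 8 bases before the annotated start. It was the only MEF2 match in the 15 windows found for 7 of the 8 members, and 2.73% of 35116 promoter windows of the same length hold the motif. The upstream HDAC9 window had 75% G and C and 41 CpG dinucleotides, and the HDAC7 window 74.7% and 33, whereas the downstream HDAC9 window had 47.3% and 5. The motif of BCL6 searched, TTCCTNGAA on both strands, was in none of the HDAC9 and HDAC7 windows, which says only that these letters are not in them.

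HDAC7, which in mouse B cell progenitors acts with MEF2C to keep genes of other lineages silent, stood at 137, 125 and 138 CPM in the RD2 mutant libraries (3663, 3356 and 3677 counts), against 212, 208 and 214 CPM in the WT libraries (5799, 5424 and 5846 counts). The groups were well separated, and the lowest value was again that of mutant replicate 2. HDAC7 fell by 0.66 on the log2 scale (SE 0.038; edgeR, adjusted p = 1.72e-12), and its log2 fold change without that library was -0.62. In GENCODE v29, 11.2% of its exonic bases overlap genes on the opposite strand, including SLC48A1. Whether the counting used strand is not given in the sources used here, so reads of these genes cannot be told apart from its own with certainty.

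HDAC5 and HDAC4 are the remaining class IIa genes. HDAC5 had 36.7, 35.4 and 36.7 CPM in the RD2 mutant rescue, against 29.6, 28.3 and 28.3 CPM in the WT rescue, with no overlap. It was 1.26-fold higher (log2 fold change 0.34, SE 0.049; edgeR, adjusted p = 3.19e-06), but did not pass against a minimum of 1.2-fold (glmTreat, adjusted p = 0.0573). HDAC4 was scarce, with 129, 148 and 176 counts in the mutant libraries and 145, 114 and 130 in the WT libraries, and the groups overlapped. Its log2 fold change of 0.23 did not pass the test (95% interval -0.026 to 0.49; edgeR, adjusted p = 0.101), although without mutant replicate 1 it did (0.33; adjusted p = 0.0241). The interval allows a rise of the size seen for HDAC5.

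Among the class I genes, HDAC1, the most abundant of the 8 transcripts per kilobase, had 489, 500.3 and 494 CPM in the RD2 mutant libraries (13089, 13430 and 13154 counts), against 629, 651 and 638 CPM in the WT libraries (17243, 17003 and 17381 counts). The groups were apart and each was tight. HDAC1 fell by 0.37 on the log2 scale (SE 0.029; edgeR, adjusted p = 3.79e-10), and passed against a minimum of 1.2-fold as well (glmTreat, adjusted p = 5.60e-04). Of the 50-base stretches of its longest transcript, 0.381% also occur in the transcribed pseudogene HDAC1P2.

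HDAC2, the paralogue reported to bind RD2, had 187, 204 and 193 CPM in the RD2 mutant rescue, against 181, 189 and 180.4 CPM in the WT rescue. The lowest mutant library lay below the highest WT library. Its log2 fold change was 0.084 (SE 0.036, 95% interval 0.0086 to 0.16; edgeR, adjusted p = 0.0444), a difference of about 1.06-fold. The call was lost with RLE scaling (adjusted p = 0.0657), with DESeq2 (adjusted p = 0.0957), with no filter on low counts (adjusted p = 0.0742) and without any 1 of 4 libraries. Without mutant replicate 2, its highest library, the log2 fold change was 0.049 (adjusted p = 0.135). Without mutant replicate 3, WT replicate 1 or WT replicate 3 the adjusted p was 0.0742, 0.115 and 0.136.

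HDAC3, the catalytic subunit of a corepressor complex through which BCL6 represses genes in germinal centre B cells, had 80.9, 80.1 and 77.7 CPM in the mutant libraries, against 92.2, 96.3 and 92.9 CPM in the WT libraries. The groups did not overlap. HDAC3 fell by 0.24 on the log2 scale (SE 0.037; edgeR, adjusted p = 9.31e-06), and did not pass against a minimum of 1.2-fold. An unnamed opposite-strand gene, AC008781.1, overlaps 9.20% of its exonic bases.

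HDAC8, encoded on chromosome X and known for deacetylating the cohesin subunit SMC3, had 19.1, 21.2 and 19.7 CPM in the RD2 mutant rescue, against 17.2, 17.5 and 18.5 CPM in the WT rescue. The mutant libraries lay above the WT libraries by a narrow margin. Its log2 fold change was 0.18 (SE 0.064; edgeR, adjusted p = 0.0198). It no longer passed with DESeq2 (adjusted p = 0.0745), without mutant replicate 2 (0.13; adjusted p = 0.0831) or without WT replicate 1 (0.15; adjusted p = 0.0738). The longest annotated HDAC8 transcript shares 18.7% of its 50-base stretches with other genes, nearly all with AL133500.1 on the same strand, so its level is less certain. Its promoter window is shown because it held the only match to the BCL6 motif among the 15 windows, in capitals, 147 bases before the annotated start. That motif is in 1.56% of the 35116 windows.
HDAC8 start, chrX:72572794-72573093, minus strand: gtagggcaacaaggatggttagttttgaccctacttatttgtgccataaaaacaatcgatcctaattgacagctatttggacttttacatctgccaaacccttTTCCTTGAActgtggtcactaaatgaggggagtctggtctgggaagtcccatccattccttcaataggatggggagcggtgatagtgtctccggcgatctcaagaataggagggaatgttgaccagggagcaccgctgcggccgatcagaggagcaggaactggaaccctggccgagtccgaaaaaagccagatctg
A match to letters does not show binding.

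To compare levels between genes, CPM were divided by the length of each gene's longest GENCODE v29 transcript in kilobases. In the RD2 mutant rescue the order was HDAC1 at 205 ± 2.44 CPM per kb, HDAC3 at 40.6 ± 0.848, HDAC9 at 21.1 ± 1.00, HDAC7 at 20.8 ± 1.12, HDAC2 at 19.7 ± 0.843, HDAC5 at 6.82 ± 0.142, HDAC8 at 3.52 ± 0.191 and HDAC4 at 0.628 ± 0.101 (SD, n = 3). The ranges of HDAC9, HDAC7 and HDAC2 overlapped there, so their order is not resolved. In the WT rescue HDAC1 at 265 ± 4.57 CPM per kb was followed by HDAC3 at 47.9 ± 1.11, HDAC7 at 32.9 ± 0.533, HDAC2 at 18.6 ± 0.502, HDAC9 at 8.27 ± 0.199, HDAC5 at 5.39 ± 0.139, HDAC8 at 3.11 ± 0.125 and HDAC4 at 0.535 ± 0.0516, with no overlap between neighbours. HDAC9 thus stood above HDAC5 in both rescues, but reached the level of HDAC7 in the mutant rescue alone. The place of HDAC2 depends on the length used, because its longest transcript has 9874 bases and its longest coding sequence 1464. Per kilobase of coding sequence HDAC2 was second in both rescues, at 133 ± 5.69 CPM per kb in the RD2 mutant rescue and 125 ± 3.39 in the WT rescue. On that scale HDAC9 (63.8 ± 3.03 CPM per kb) and HDAC3 (62.0 ± 1.29) overlapped in the mutant rescue, with HDAC7 below both at 43.8 ± 2.37.

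The make-up of a class is given by shares, each library's CPM per kb of one gene over the sum of its class. Each share also depends on the other genes of the class, so it can rise while its own gene falls. HDAC9 made up 41.4%, 45.4% and 41.5% of class IIa in the RD2 mutant libraries, against 17.1%, 18.1% and 17.5% in the WT libraries. HDAC7 made up 43.4%, 39.8% and 43.2% in the mutant libraries, against 69.9%, 69.5% and 70.2% in the WT libraries. HDAC5 took 13.8% ± 0.235 in the mutant rescue and 11.4% ± 0.313 in the WT rescue, and HDAC4 1.27% ± 0.193 in the mutant rescue and 1.13% ± 0.104 in the WT rescue. The summed class IIa level was 49.3 ± 0.495 CPM per kb in the mutant rescue and 47.1 ± 0.505 in the WT rescue, a log2 ratio of 0.066, so the larger change was in which paralogue was present. By coding length that log2 ratio was 0.20, the HDAC5 share differed by 0.802 percentage points in place of 2.37, and the HDAC4 share by 0.0287 points in place of 0.138. The difference in HDAC4 share was 0.037 without mutant replicate 3 and 0.229 without mutant replicate 1. By coding length HDAC9 made up 53.1% ± 2.31 of class IIa in the mutant rescue and HDAC7 36.5% ± 2.07. In the WT rescue HDAC9 made up 24.0% ± 0.649 and HDAC7 66.5% ± 0.452 on that scale.

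In class I, HDAC1 made up 76.1%, 76.1% and 76.6% of the sum in the RD2 mutant libraries, against 79.2%, 79.1% and 79.3% in the WT libraries. HDAC2 took 7.12%, 7.56% and 7.29% in the mutant libraries, against 5.57%, 5.61% and 5.48% in the WT libraries. By coding length HDAC2 took 24.0% ± 0.570 in the mutant rescue and 19.2% ± 0.218 in the WT rescue. HDAC3 took 15.1% ± 0.357 in the mutant rescue and 14.3% ± 0.0864 in the WT rescue. That difference of 0.803 percentage points shrank to 0.0568 by coding length. HDAC1, most of the class sum, fell more than HDAC3 (log2 fold changes -0.37 and -0.24), so the HDAC3 share rose although HDAC3 fell. The fall of HDAC1 also enters the HDAC2 share, as the log2 fold change of HDAC2 itself was 0.084. HDAC8 took 1.31% ± 0.0541 in the mutant rescue and 0.930% ± 0.0407 in the WT rescue, and its difference of 0.377 points was 0.728 by coding length. The summed class I level was 269 ± 3.43 CPM per kb in the mutant rescue and 335 ± 6.12 in the WT rescue, a log2 ratio of -0.32. Class IIa accordingly made up 15.5% ± 0.250 of the 2 classes together in the mutant rescue and 12.3% ± 0.289 in the WT rescue. Each of these 11 values differed without overlap between the groups except the HDAC4 share, with p = 0.1 in an exact two-sided permutation test, the smallest that 3 libraries against 3 allow (0.11 adjusted over the 11), and p = 0.4 for HDAC4 (0.4 adjusted). Taken singly, 72.4% of all tested genes were without overlap.

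**Figure D3:**
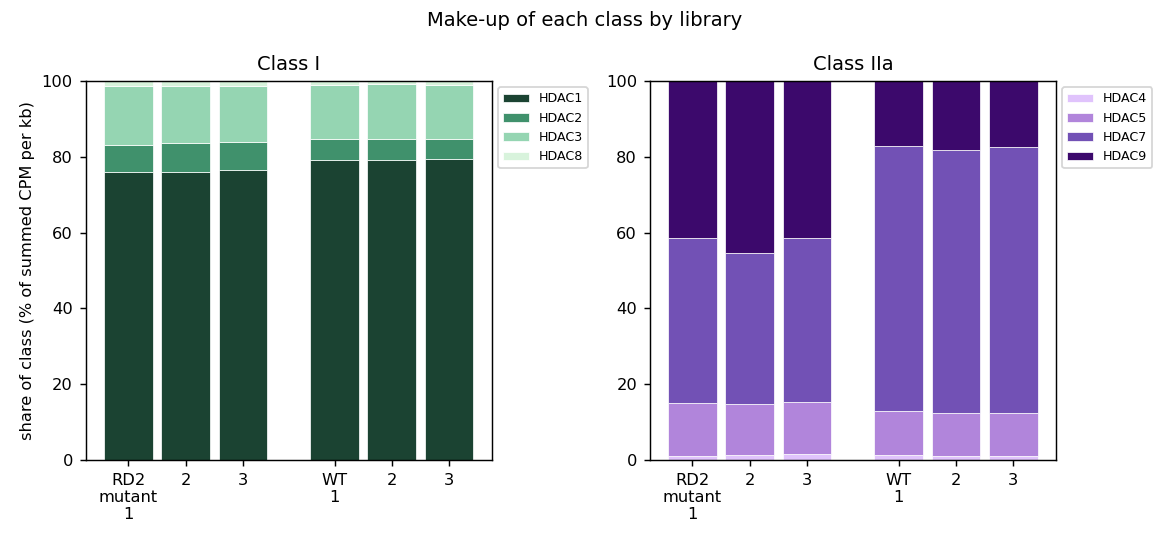
Make-up of class I and class IIa in each library as percent of summed TMM-scaled CPM per kb of longest transcript, with RD2 mutant libraries left of WT libraries. HDAC9 fills 41.4% to 45.4% of class IIa in the mutant libraries and 17.1% to 18.1% in the WT libraries, while HDAC1 dominates class I in all 6 libraries.

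Ratios of raw counts between paralogues need neither library scaling nor gene length for a comparison between the groups. In each pair the gene with the higher log2 fold change was put first, so a higher ratio in the mutant rescue follows from that order. There were 1.44, 1.73 and 1.46 HDAC9 reads per HDAC7 read in the RD2 mutant libraries, against 0.369, 0.394 and 0.377 in the WT libraries. This ratio was 4.04-fold higher in the mutant rescue (difference 2.02 on the log2 scale). It was the widest of the 12 pairs within a class, as it sets the largest rise against the largest fall among the members. There were 0.383, 0.407 and 0.390 HDAC2 reads per HDAC1 read in the mutant libraries, against 0.288, 0.291 and 0.283 in the WT libraries, a ratio 1.37-fold higher in the mutant rescue. The HDAC2 to HDAC3 ratio was 1.25-fold higher, and the HDAC5 to HDAC7 ratio 2.0-fold. For 10 of the 12 pairs the groups did not overlap, and each of these had p = 0.1 in the exact two-sided permutation test (0.12 adjusted over the 12 pairs). The exceptions were HDAC8 to HDAC2, 1.07-fold higher in the mutant rescue (p = 0.3, exact permutation test), and HDAC5 to HDAC4, 1.08-fold higher (p = 0.7, exact permutation test). Pairs share members and are not independent of each other. Taken singly, 72.4% of all tested genes were without overlap, and the share for pairs of other genes was not computed.

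**Figure D4:**
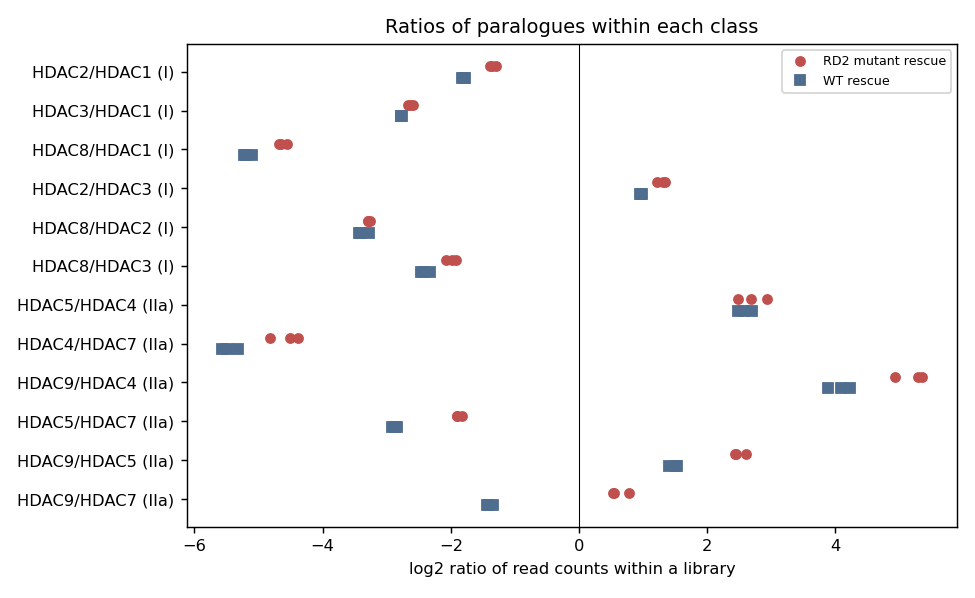
Log2 ratio of read counts between the 12 pairs of paralogues within a class, 1 point per library (RD2 mutant rescue red circles, WT rescue blue squares). The HDAC9 to HDAC7 ratio lies above 0 in the mutant libraries and below 0 in the WT libraries, and the groups overlap for HDAC8 to HDAC2 and HDAC5 to HDAC4.

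The genes whose pattern over the 6 libraries was most like that of HDAC9 were FGD4 (log2 fold change 1.38), IL7R (1.34) and CXCR4 (1.31), at root mean square distances of 0.0262, 0.0283 and 0.0288 in log2 CPM centred on each gene's mean. CXCR4, the chemokine receptor of the germinal centre dark zone, stood at 1217 ± 27.8 CPM in the RD2 mutant rescue against 489 ± 9.24 CPM in the WT rescue. Nearest to HDAC1 were ORMDL2 (-0.39), GTF3C6 (-0.36) and PSAP (-0.38), at distances of 0.0126, 0.0129 and 0.0130. The search covered 8709 genes with a mean of at least 10 CPM, and with 6 libraries in 2 groups it mainly finds genes with the same fold change.

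Of the class IIa partners, all 4 MEF2 genes changed, 3 of them higher and 1 lower, beside 70.1% of all tested genes called. All 4 also passed against a minimum of 1.2-fold, beside 37.0% of all tested genes. Whether a list of 4 is set apart by these counts was not tested. MEF2A had 448 ± 6.06 CPM in the RD2 mutant rescue and 209 ± 5.28 CPM in the WT rescue, a 2.15-fold rise (edgeR, adjusted p = 2.21e-17). MEF2D rose 2.08-fold, at 148 ± 5.36 CPM in the mutant rescue against 71.0 ± 1.44 CPM in the WT rescue (edgeR, adjusted p = 8.44e-16). MEF2C, which mature B cells need for their response to antigen receptor signals, rose 1.38-fold, at 294 ± 14.7 CPM in the mutant rescue against 213 ± 4.17 CPM in the WT rescue. MEF2B, which activates BCL6 transcription in germinal centre B cells, fell 2.15-fold at a low level, at 1.43 ± 0.449 CPM in the mutant rescue against 3.09 ± 0.600 CPM in the WT rescue. The neighbouring gene MEF2BNB and a readthrough of both have rows of their own in the table, the readthrough at 0 in every library, so the MEF2B level is less certain.

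The 12 tested kinases that phosphorylate class IIa proteins held 6 higher, 3 lower and 3 uncalled genes, beside 70.1% of all tested genes called. Of all tested genes, 35.4% were called as higher and 34.8% as lower. The median log2 fold change was 0.17 for the kinases and 0.01 for all tested genes, a difference that was not tested. Against a minimum of 1.2-fold 4 of the 12 kinases passed, 2 higher and 2 lower, beside 37.0% of all tested genes. CAMK1D was 3.79-fold higher at a low level (5.31 ± 0.331 CPM in the mutant rescue, 1.40 ± 0.165 in the WT rescue), SIK3 rose 1.26-fold, and SIK1 fell 2.10-fold (8.89 ± 1.25 CPM in the mutant rescue, 18.6 ± 0.527 in the WT rescue). PRKD1 was at 0 in every library. Of 6 tested genes for 14-3-3 proteins, which hold phosphorylated class IIa proteins in the cytoplasm, 2 were higher, 3 lower and 1 uncalled. That is 83.3% called, beside 70.1% of all tested genes. Against a minimum of 1.2-fold 0 passed, beside 37.0% of all tested genes (edgeR glmTreat). The most significant were YWHAG (log2 fold change -0.28), YWHAH (0.25) and YWHAQ (-0.16).

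The complexes in which class I enzymes work showed no common direction. The counts below stand beside 70.1% of all tested genes called, 35.4% as higher and 34.8% as lower. Of 5 genes for the HDAC3 complex, NCOR1, the scaffold, rose 1.17-fold, at 392 ± 12.4 CPM in the RD2 mutant rescue against 336 ± 3.33 CPM in the WT rescue. The beta-transducin-like subunit TBL1X fell 1.25-fold. Of the list, 1 gene was higher, 2 were lower and 2 were uncalled. Of 11 NuRD genes, 2 were higher, 5 lower and 4 uncalled, with a median of -0.035. The helicase subunit CHD3 fell 1.57-fold (294 ± 11.4 CPM in the mutant rescue, 462 ± 2.74 in the WT rescue), the methyl-CpG binding subunit MBD2 1.44-fold, and MTA3, a subunit reported to join BCL6 to NuRD, 1.37-fold (97.3 ± 2.61 CPM in the mutant rescue, 133 ± 3.96 in the WT rescue).

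Of 15 SIN3 genes, 9 were higher, 3 lower and 3 uncalled, with a median of 0.13, and SAP30L (1.46-fold), the chromatin reader ING1 (1.39-fold) and ARID4A (1.31-fold), all higher, had the smallest p-values. RBBP4 and RBBP7 count in both this list and the NuRD list. All 7 CoREST genes were called, 5 higher and 2 lower, with a median of 0.24, beside 70.1% of all tested genes. Against a minimum of 1.2-fold 3 of the 7 passed, beside 37.0% of all tested genes. The scaffold RCOR2 rose 2.62-fold at a low level (13.1 ± 1.26 CPM in the mutant rescue, 5.0 ± 0.300 in the WT rescue), its paralogue RCOR3 1.38-fold and the histone reader PHF21A 1.33-fold. In the mitotic deacetylase and MIER complexes, 5 of 6 genes were higher and 1 lower, beside 70.1% of all tested genes called. Against a minimum of 1.2-fold 2 of the 6 passed, beside 37.0% of all tested genes. MIER3 rose 1.48-fold and DNTTIP1 1.14-fold, while C14orf43, the scaffold of the mitotic complex, fell 1.11-fold.

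Other deacetylases were mixed as well, beside 70.1% of all tested genes called, 35.4% as higher and 34.8% as lower. The class IIb tubulin deacetylase HDAC6 rose 1.21-fold (60.3 ± 4.36 CPM in the mutant rescue, 49.9 ± 3.68 in the WT rescue), and HDAC10 did not pass the test (log2 fold change -0.14, 95% interval -0.56 to 0.28). HDAC11, of class IV, fell 2.69-fold at very low depth, with 10, 16 and 7 counts in the mutant libraries and 22, 35 and 33 in the WT libraries. Of 7 sirtuin genes, which encode deacetylases that use NAD, 3 were higher, 1 lower and 3 uncalled. SIRT1 rose 1.38-fold (127 ± 8.77 CPM in the mutant rescue, 92.0 ± 0.433 in the WT rescue), SIRT2 1.15-fold and SIRT7 1.12-fold. Without WT replicate 2 the SIRT7 call was lost (edgeR, adjusted p = 0.0795) and 2 sirtuin genes were called in all. Of 11 histone acetyltransferase genes, 5 were higher, 3 lower and 3 uncalled, with a median of 0.053. CREBBP rose 1.59-fold (235 ± 3.41 CPM in the mutant rescue, 148 ± 2.81 in the WT rescue), its paralogue EP300 1.25-fold (415 ± 2.80 CPM in the mutant rescue, 333 ± 8.96 in the WT rescue) and KAT6B 1.37-fold.

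**Figure D5:**
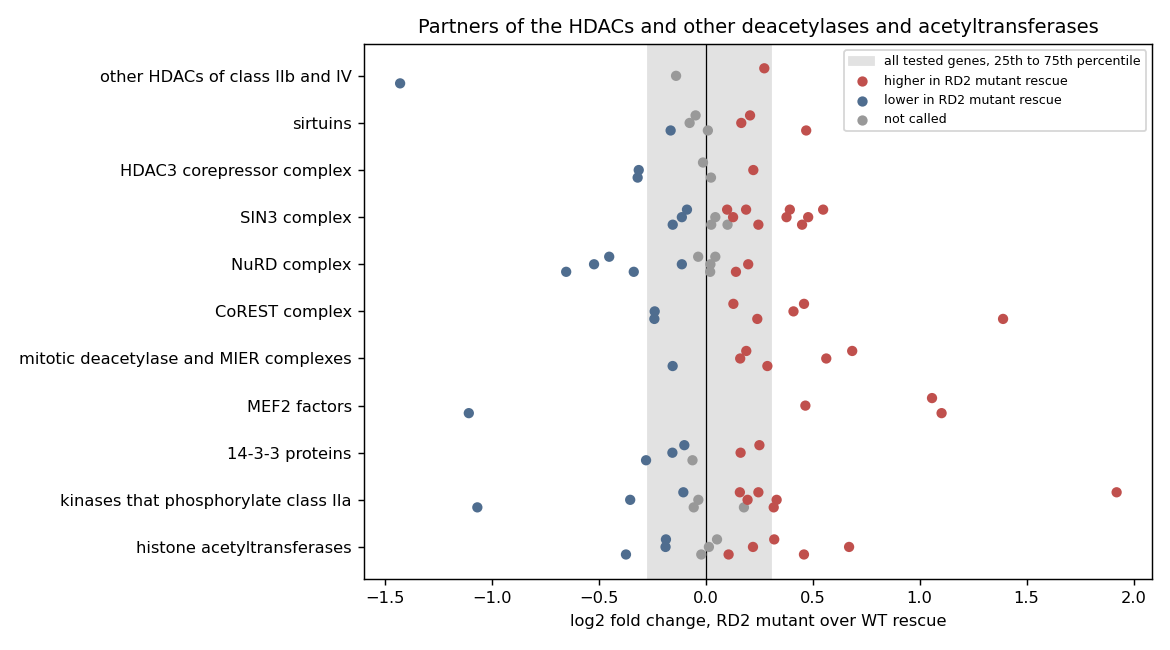
Log2 fold change, RD2 mutant over WT rescue, of every tested gene on the 11 lists of partners and related enzymes, coloured by call, with the middle 50% of all tested genes in grey. MEF2A and MEF2D lie at 1.10 and 1.06 and MEF2B at -1.11, and each of the 11 lists has genes on both sides of 0.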

How the data were processed

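Transcripts were measured by RNA sequencing in 6 libraries, 3 per rescue, grouped by their titles. The table the authors deposited holds whole-number read counts by gene symbol, 1 column per library. Per the submitters' processing notes the build was hg19 and the tools included CASAVA 1.8.2, STAR and edgeR. How reads were counted, by strand, annotation and multiple matches, is not given in the sources used here.

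Counts were tested in R 4.3.3 with edgeR 4.0.16. filterByExpr kept 12406 of 23250 genes, libraries were scaled with TMM, and the robust quasi-likelihood test compared the RD2 mutant with the WT rescue, without covariates. Benjamini-Hochberg adjustment covered every tested gene, and calls needed an adjusted p under 0.05. Log2 fold changes are mutant over WT. The script was tested on simulated data. Shares and ratios used exact permutation tests (scipy 1.17.1). Alternatives were other scalings, filters, DESeq2 1.42.0, glmTreat, the replicate number as a block and leaving out each library.

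The members and lists were chosen with earlier results of these data known. Besides the 8 members and BCL6, the text names every tested gene of lists with at most 4, the 3 with the smallest p of longer lists, and 3 genes nearest in pattern to HDAC1 and HDAC9, the called member of each class with the largest fold change. A gene that this rule names in the HDAC3 complex list is not reported here. PRKD1, SLC48A1, MEF2BNB, RBBP4 and RBBP7 are named outside this rule. Transcript and coding lengths and overlaps came from GENCODE v29 and promoter windows from RefSeq, both on GRCh38. The counts were made on hg19, so no coordinates were joined to them.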

Additional observations from a re-analysis of the deposited data

How the results depend on the processing

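The HDAC9, HDAC7 and HDAC1 calls kept their direction and side of the threshold under all 14 alternatives run, with log2 fold changes without each library in turn of 1.31 to 1.38, -0.69 to -0.62 and -0.38 to -0.35. The other scalings moved the median of all genes by at most 0.026 and reversed no gene named. Calls ranged from 8099 to 8916 genes and from 5 to 8 members without each library in turn. Against a minimum of 1.2-fold, 4585 genes and 3 members were called. HDAC2 (0.084), HDAC3 (-0.24) and HDAC8 (0.18) lost their calls, and their estimates lay under that minimum. HDAC5 (0.34) lost its call although its estimate of 1.26-fold lay above the minimum (edgeR glmTreat, adjusted p = 0.0573). The HDAC2 value was 0.078 with RLE scaling, 0.075 with no filter on low counts and 0.078 with DESeq2, and 0.049 to 0.11 without each library. HDAC8 was 0.17 with DESeq2 and 0.13 to 0.21 without each library, and HDAC4 0.10 to 0.33. The causes were not tested. The 1.2-fold minimum was passed by 37.0% of all tested genes (edgeR glmTreat). It was passed by 1 of 3 class IIb and IV genes and 1 of 7 sirtuins. Of 5 HDAC3 complex genes it kept 0 (3 at an adjusted p under 0.05 without the minimum). It kept 4 of 15 SIN3, 3 of 11 NuRD, 3 of 7 CoREST and 2 of 6 mitotic and MIER genes. Of the 14-3-3 genes it kept 0 of 6, of the kinases 4 of 12 and of the acetyltransferases 4 of 11. With at least 1 CPM in all libraries 1 class IIb and IV gene was called, because HDAC11 was filtered out. Sirtuin calls ranged from 2 to 4 without each library, with 2 without WT replicate 2.

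Without scaling by length, the differences in share were -5.71 points for HDAC1, 5.02 for HDAC2, 0.0557 for HDAC3, 0.640 for HDAC8, 0.712 for HDAC5, -29.9 for HDAC7 and 29.2 for HDAC9. By coding length they were -5.66 for HDAC1, 4.88 for HDAC2, 0.0568 for HDAC3, 0.728 for HDAC8, 0.802 for HDAC5, -30.0 for HDAC7 and 29.2 for HDAC9. The class I sum had log2 ratios of -0.24 by either, and the class IIa sum 0.23 without length scaling and 0.20 by coding length. The class IIa share of both classes differed by 6.71 points without length scaling and 4.10 by coding length. The HDAC4 share differed by 0.0057 points without length scaling, 0.0287 by coding length, and 0.037 to 0.229 without each library in turn. The lengths weight the paralogues differently. With library size only in place of TMM, which changes the scaling and not the lengths, the class IIa sum had a log2 ratio of 0.091. The log2 ratio of HDAC5 to HDAC4 counts differed by 0.11 between the groups, and by -0.0044 to 0.22 without each library in turn, where the change of sign came without RD2 mutant replicate 1.

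Libraries with the same replicate number correlated at 0.196, 0.239 and -0.0719 in their deviations from the group means. Libraries with different numbers correlated at -0.255 to 0.106. Those numbered 1 and 2 correlated best with their own number, and those numbered 3 did not. What the number stands for is not in the labels, so whether the libraries are paired is not known. With the replicate number as a block 9285 genes and 7 members were called, and of the genes named only HDAC10 gained a call (-0.14; edgeR, adjusted p = 0.0114). Depth limits the values of HDAC11, MEF2B and CAMK1D most.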
